A study of Drosophila melanogaster with 24 samples.

Results

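The genes described here are the Slit, Robo and Netrin guidance genes of *Drosophila melanogaster*, 9 of the 13922 protein-coding genes and of the 17684 genes of all kinds on the 6 chromosome arms. They are the ligand gene *sli*, the 3 Robo receptor genes *robo1*, *robo2* and *robo3*, the Robo regulator *comm*, the Netrin genes *NetA* and *NetB*, and the Netrin receptor genes *fra* and *unc-5*. The rule that picks them uses gene names and no measured value, but it was written with earlier results of these data known, among them low axon guidance genes in elav neurons. Each gene was found by its current symbol in a Release 6 gene table. The values are those of Cap-G, a subunit of the condensin I complex, along each gene and the 5 kb on either side of it.

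In the fly nerve cord, axons meet at a midline of glial cells that secretes both attractants and repellents. Netrins attract axons through the receptor Frazzled and repel them through Unc-5, while Slit repels axons that carry Robo receptors. Commissureless keeps Robo off the surface of growth cones until they have crossed, after which Robo holds them on their side and the combination of Robo receptors helps to set how far from the midline they run. Condensin I folds and compacts chromosomes and is best known for its work in mitosis, so its place on chromatin in neurons, which no longer divide, was the subject of the study.

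Cap-G was fused at its C-terminus to the bacterial Dam methylase (*UAS-LT3-Cap-G-Dam*), which methylates GATC sites near the bound protein, and the Dam-only control flies carried *tub-GAL80ts; UAS-LT3-NDam*. The fusion was driven in NSCs (neural stem cells, also called neuroblasts) by *wor-GAL4*, in immature and mature neurons by *elav-GAL4* (elav neurons), and in mature neurons by *nSyb-GAL4* (nSyb neurons), each driver line with *tub-GAL80ts*. Every group was of larvae in the third instar, raised at 18°C and moved to 29°C for 24 h before 30 brains were dissected per sample, with 2 Cap-G-Dam and 2 Dam-only samples per driver. No driver separates neurons by type or age beyond this, the elav neurons include the mature neurons that nSyb marks, and Dam methylation adds up over the whole induction. The tracks hold Cap-G occupancy and not transcripts, so the cells in which each driver was active were not checked here.

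The values are 1 averaged track per driver, each giving log2(Cap-G-Dam/Dam-only) for 373710 GATC fragments with a median length of 196 bp. A value above 0 means more Cap-G-Dam than Dam-only signal and a value below 0 means less. The paper describes negative values as normal at sites of depleted binding with higher background Dam-only methylation. It also states that untethered Dam prefers accessible chromatin. Low Cap-G, or depletion, below thus means a low ratio. How far a low value, or a difference between drivers, comes from the Dam-only signal was not tested. Because only the authors' averages were used, there is no replicate spread, no error and no p-value for any value here, and the depth behind each fragment is unknown. The order of levels between genes and between cell types is therefore a description of these 3 tracks, and it cannot be said which neighbours in an order differ beyond their spread. The tracks were normalised separately and differ in width (SD of the fragments 0.30 in NSCs, 0.46 in elav and 0.36 in nSyb neurons), so cell types are compared by percentile among all protein-coding genes or by a scaled value. The scaled value is the distance from the median protein-coding gene in units of the median absolute deviation, rescaled to match an SD.

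All 3 tracks placed the guidance genes low. The mean log2 ratio over the gene was below 0 for 9 of the 9 genes in NSCs, for 8 in elav neurons and for 9 in nSyb neurons, where 50.4%, 41.3% and 49.5% of all protein-coding genes were below 0. The median of the 9 genes was -0.12 in NSCs, -0.34 in elav and -0.17 in nSyb neurons, against medians of -0.00, 0.05 and 0.00 over all protein-coding genes. In percentiles, the median gene of the 9 stood at 25.0 in NSCs, 11.7 in elav and 25.1 in nSyb neurons. No guidance gene stood above percentile 45.4 in any of the 3 cell types. *comm* in elav neurons was the 1 value above 0, at 0.02. With the unweighted median of the fragments in place of this mean, 9 of 9 no longer held. *NetA* then stood at 0.001 in NSCs and 0.09 in elav neurons, and *unc-5* at 0 in nSyb neurons.

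Of the 9 genes, 7 are 20 kb or longer, and long genes as a class were also more often below 0. Among the 1012 protein-coding genes of that length, 61.0% had a value below 0 in NSCs, 50.8% in elav and 65.6% in nSyb neurons. Set against these long genes only, *robo2* stood at percentile 3.21 in NSCs, 0.642 in elav and 33.4 in nSyb neurons. *unc-5* stood at 4.20, 1.14 and 24.8 in the same order. *robo2* and *unc-5* were thus among the lowest long genes in NSCs and elav neurons but not in nSyb neurons. In that order *sli* stood at 6.37, 4.10 and 45.5, *fra* at 16.6, 6.27 and 28.3, and *robo3* at 18.6, 7.86 and 9.63. *NetB* stood at 26.8, 16.7 and 19.9, and *NetA* at 36.1, 48.2 and 53.9. Among long genes *NetA* was thus near the middle in elav and nSyb neurons, as was *sli* in nSyb neurons.

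**Figure D1:**
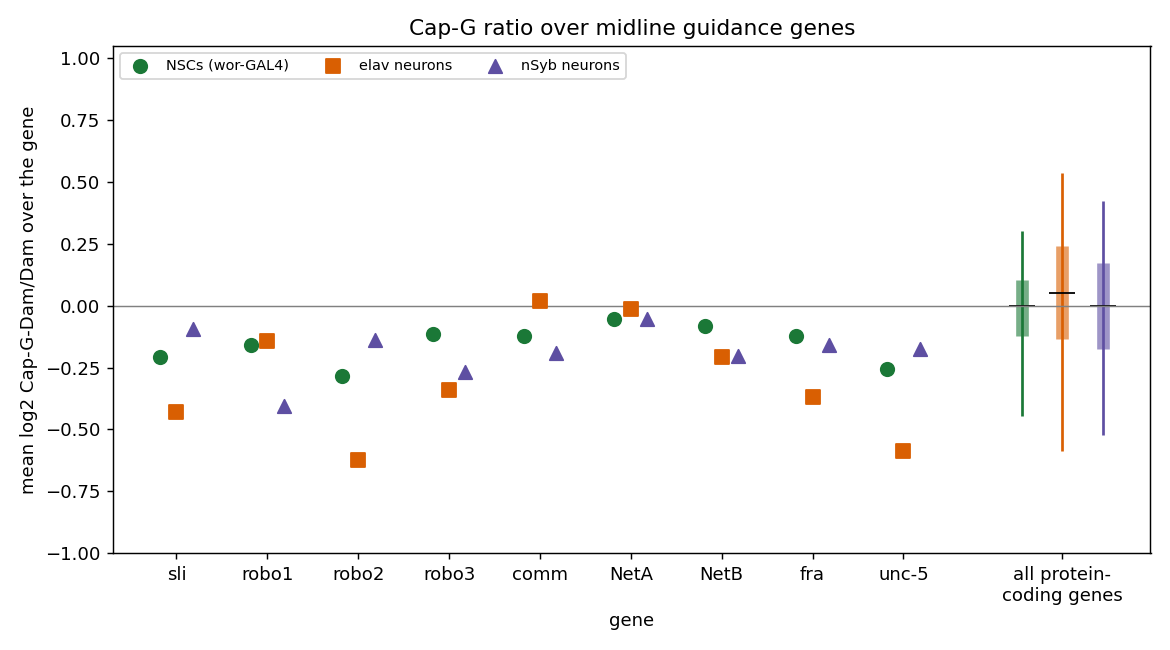
Mean log2 Cap-G-Dam/Dam-only ratio over each guidance gene (y axis) in NSCs, elav neurons and nSyb neurons, 1 averaged track each, with the distribution over all protein-coding genes at the right (box from the lower to the upper quartile, line from the 5th to the 95th percentile, bar at the median). All points but that of comm in elav neurons (0.02) lie below 0, and the lowest points are robo2 (-0.62) and unc-5 (-0.59) in elav neurons.

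*sli* encodes Slit, the secreted repellent of the midline glia. It spans 52.6 kb of 2R (chr2R:15869495-15922118) and 100 GATC fragments. Its average log2 ratio was -0.21 in NSCs, -0.43 in elav and -0.10 in nSyb neurons. These correspond to percentiles 15.9, 8.68 and 35.1, so Slit's gene was lowest in elav neurons and nearer the middle of the genome in nSyb neurons. Single fragments ranged from -2.45 to 0.61 in elav neurons, and 76 of the 100 were below 0 there, against 67 in NSCs and 55 in nSyb neurons.

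The lowest stretches of *sli* lay toward its high-coordinate end, but low signal was not confined to it. The 5 consecutive fragments with the lowest mean in elav neurons (chr2R:15912877-15914256, 44.1 kb from the low end) averaged -2.00 in elav neurons, -1.32 in NSCs and -0.23 in nSyb neurons. This stretch was deeply depleted in NSCs and elav neurons and much less so in nSyb neurons. A few kilobases further along, at chr2R:15916420-15919212, the means were -0.60, -0.98 and -0.93 in NSCs, elav neurons and nSyb neurons, so there all 3 tracks were low. That second stretch overlaps the non-coding RNA gene *lncRNA:CR44373*, which lies within *sli*. Nearer the low end, the 1 kb window at 12 kb stood at -0.71 in NSCs, -1.50 in elav and -0.28 in nSyb neurons, about as low in elav neurons as the windows at 43 kb (-1.53) and 47 kb (-1.46).

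*sli* also held the highest stretch of 5 fragments found inside any of the 9 genes in NSCs. At chr2R:15874603-15875587, 5.60 kb from the low end, 5 fragments averaged 0.75 in NSCs, 0.28 in elav and 0.47 in nSyb neurons. A further stretch at chr2R:15884713-15886150 stood at 0.61 in nSyb neurons, above NSCs (0.11) and elav neurons (0.21). The 5 kb beyond the low end of *sli*, which hold the replication timing gene *Rif1*, averaged 0.05 in NSCs, 0.22 in elav and 0.26 in nSyb neurons. There the elav neurons were above 0, unlike over *sli* itself.

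*robo1* encodes the founding Robo receptor for Slit. It is short beside its relatives, 8.45 kb of 2R (chr2R:22692524-22700970) with 32 fragments. The log2 ratio averaged -0.16 in NSCs, -0.14 in elav and -0.41 in nSyb neurons, at percentiles 20.5, 24.5 and 8.49. It was the only one of the 9 genes below percentile 10 in nSyb neurons. In nSyb neurons 30 of its 32 fragments were below 0, and 49.8% of its length lay in the lowest 10% of the track's fragments, against 20.4% in NSCs and 8.76% in elav neurons. Such fragments made up 10.9% of all fragment length in nSyb neurons, 10.4% in NSCs and 11.3% in elav neurons.

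The surroundings of *robo1* differed sharply from the gene. The 5 kb on its low-coordinate side averaged -0.38 in NSCs, -0.98 in elav and -0.35 in nSyb neurons. The 5 kb on its high-coordinate side averaged 0.07, 0.14 and 0.44. In every track the low side was lower than the high side, and with both flanks added the value of *robo1* was -0.16 in NSCs, -0.29 in elav and -0.16 in nSyb neurons. With the flanks, nSyb neurons were no longer its lowest cell type on this scale.

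*robo2* encodes a Robo receptor that sets the lateral position of longitudinal axons. With all fragments counted, it was the lowest of the 9 genes in NSCs and in elav neurons. It spans 40.4 kb of 2L (chr2L:1380086-1420453) with 104 fragments. Over the gene the log2 ratio averaged -0.28 in NSCs, -0.62 in elav and -0.14 in nSyb neurons. The percentiles were 10.96, 4.35 and 29.6. Fragments of that lowest 10% made up 46.5% of its length in NSCs and 55.1% in elav neurons but 14.8% in nSyb neurons, where 10.9% of all fragment length in the track was of that kind.

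The depletion over *robo2* in elav neurons ran through most of the gene. In 1 kb windows it reached -1.77 at 10 kb from the low end, -1.70 at 16 kb and -1.71 at 38 kb. NSCs were low in the same windows, at -0.96, -0.94 and -1.05 on a narrower track. The nSyb track stood at 0.07, -0.19 and -0.37 in those windows. It was lower in other windows, with -0.60 at 4 kb, -0.46 at 17 kb and -0.57 at 37 kb. Its lowest 5 fragments ran across the high-coordinate end (chr2L:1419837-1420959). They averaged -1.43 in nSyb neurons, -0.81 in NSCs and -0.96 in elav neurons. Between 19 and 23 kb, every track was near 0 over a single GATC fragment of 4.15 kb.

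*robo3* encodes the third receptor of the family, used by axons in intermediate tracts. It spans 40.2 kb of 2L (chr2L:1256417-1296596), separated from *robo2* by 83.5 kb and 14 other genes. Its average log2 ratio was -0.11 in NSCs, -0.34 in elav and -0.27 in nSyb neurons, at percentiles 26.4, 11.7 and 16.3. Neurons of both kinds were below NSCs. The interval between *robo3* and *robo2* averaged -0.08, -0.25 and -0.09 in the same order, so the interval too was lowest in elav neurons.

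The lowest 1 kb window of *robo3* was at its low-coordinate end in elav neurons (-1.47) and at 25 kb in nSyb neurons (-1.32). The 5 fragments at chr2L:1255260-1258666, which run across that end, averaged -0.46 in NSCs, -1.16 in elav and -1.13 in nSyb neurons. The window at 25 kb stood at 0.03, -0.78 and -1.32. There neurons were depleted, most of all nSyb neurons, while NSCs were near 0.

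*comm* encodes Commissureless, which sorts Robo away from the growth cone surface in axons that cross. It is the shortest gene of the set, 6.92 kb of 3L (chr3L:15721511-15728430) with 15 fragments, and therefore the least finely measured. The last of these fragments is 3.46 kb long and reaches beyond the gene. The log2 ratio averaged -0.12 in NSCs, 0.02 in elav and -0.19 in nSyb neurons, at percentiles 25.0, 45.4 and 23.1. *comm* was the only gene of the 9 that was highest in elav neurons by more than 10 percentile points.

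With the unweighted median of its fragments *comm* was nearer to 0, at -0.02 in NSCs and -0.08 in nSyb neurons, and its order of NSCs and elav neurons turned (scaled difference -0.16 in place of 0.63). The 5 kb on its low-coordinate side, with *CG42570* and *CG42571*, averaged 0.03 in NSCs, 0.31 in elav and 0.08 in nSyb neurons. *CG42571* itself was at 0.74 in elav neurons against 0.00 and 0.18 in NSCs and nSyb neurons.

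*NetA* and *NetB* encode the secreted Netrins, which lie side by side on X. *NetA* covers 49.9 kb (chrX:14604012-14653928, 110 fragments) and *NetB* covers 63.3 kb (chrX:14686038-14749376, 108 fragments), with 32.1 kb and the gene *CG5321* between them. *NetA* had a mean log2 ratio of -0.05 in NSCs, -0.01 in elav and -0.05 in nSyb neurons. Its percentiles of 36.8, 39.0 and 41.2 made it the gene of the set nearest to the middle of the genome in NSCs and nSyb neurons. The unweighted median of its fragments in elav neurons was above 0, at 0.09.

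*NetB* had a mean log2 ratio of -0.08 in NSCs, -0.21 in elav and -0.20 in nSyb neurons. The percentiles were 31.5, 19.3 and 22.0. The 2 Netrin genes thus had similar values in NSCs, while in neurons *NetB* was the lower. In nSyb neurons 88 of the 108 fragments of *NetB* were below 0, against 59 of the 110 of *NetA*.

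The averages of the Netrin genes hid stretches of opposite sign. Near the low end of *NetA*, 5 fragments at chrX:14604996-14605613 averaged 0.78 in elav neurons, 0.30 in nSyb neurons and 0.03 in NSCs. Near its high end, 5 fragments at chrX:14649077-14651512 averaged -1.07 in elav neurons, -0.64 in NSCs and 0.06 in nSyb neurons. On the log2 scale elav neurons thus held both the highest and the lowest of these values, but their track is also the widest. Within *NetB*, 5 fragments at chrX:14718461-14719743, which begin in the small nested gene *hog*, averaged 0.66 in elav neurons, 0.36 in nSyb neurons and -0.13 in NSCs. Just beyond the high end of *NetB* (chrX:14749662-14751334) all 3 tracks were low, at -0.65 in NSCs, -1.18 in elav and -0.63 in nSyb neurons.

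*fra* encodes Frazzled, the attractive Netrin receptor. It spans 35.1 kb of 2R (chr2R:12529053-12564184) with 94 fragments. Over the gene the log2 ratio averaged -0.12 in NSCs, -0.37 in elav and -0.16 in nSyb neurons, at percentiles 25.1, 10.6 and 26.8. Elav neurons were the lowest and the other cell types were close to each other. In elav neurons the lowest stretch lay at chr2R:12554835-12556906, where 5 fragments averaged -1.06, against -0.56 in NSCs and -0.07 in nSyb neurons.

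Next to that stretch the tracks parted in sign. At chr2R:12557670-12558961, 5 fragments of *fra* averaged -0.62 in NSCs and -0.75 in elav neurons but 0.26 in nSyb neurons. Toward the high-coordinate end of the gene NSCs were above 0, with 1 kb values of 0.36 and 0.35 at 31 and 32 kb. Elav neurons had -0.22 and 0.08 there and nSyb neurons 0.17 and 0.29. At 34 kb, next to that end, NSCs stood at -0.09, elav neurons at 0.26 and nSyb neurons at 0.14. Beyond that end stand *Cyp301a1*, a cytochrome P450 gene, and *Ak6*. *Cyp301a1* was at 0.37 in NSCs, 0.61 in elav and 0.15 in nSyb neurons, all above the values of *fra*.

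*unc-5* encodes the repulsive Netrin receptor, and its values over all fragments were close to those of *robo2*. It spans 27.8 kb of 2R (chr2R:15340472-15368300) with 71 fragments. Its average log2 ratio was -0.26 in NSCs, -0.59 in elav and -0.17 in nSyb neurons, at percentiles 12.4, 4.94 and 25.1. Elav neurons were again the lowest. In elav neurons only 1 fragment was above 0, and single fragments reached -2.67.

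Of the 71 fragments of *unc-5*, 23 were listed at exactly 0 in all 3 tracks, a run of 7.64 kb that begins 0.677 kb from the low end (chr2R:15341149-15348786). The sources used here do not say what a listed 0 stands for. Without these fragments the values were -0.35 in NSCs, -0.81 in elav and -0.24 in nSyb neurons, so the run had drawn the averages toward 0. None of the other genes had a comparable run. *NetA* and *robo2* had 4 such fragments each, *comm* had 1, and the other 5 genes had 0.

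The low stretches of *unc-5* lay past the run of zeros. The 5 fragments at chr2R:15350239-15351409 averaged -0.53 in NSCs, -1.84 in elav and -0.74 in nSyb neurons. The next low stretch, at chr2R:15351577-15352519, averaged -1.22, -1.48 and -0.04. NSCs and elav neurons were thus depleted where nSyb neurons were at about 0. Toward the high-coordinate end, at chr2R:15365728-15366893, NSCs and nSyb neurons were above 0 (0.38 and 0.37) and elav neurons below it (-0.48). The neighbour on the low side, *Hr51*, a nuclear receptor gene, was also lowest in elav neurons, at -0.27, -0.50 and -0.07 in NSCs, elav neurons and nSyb neurons.

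**Figure D2:**
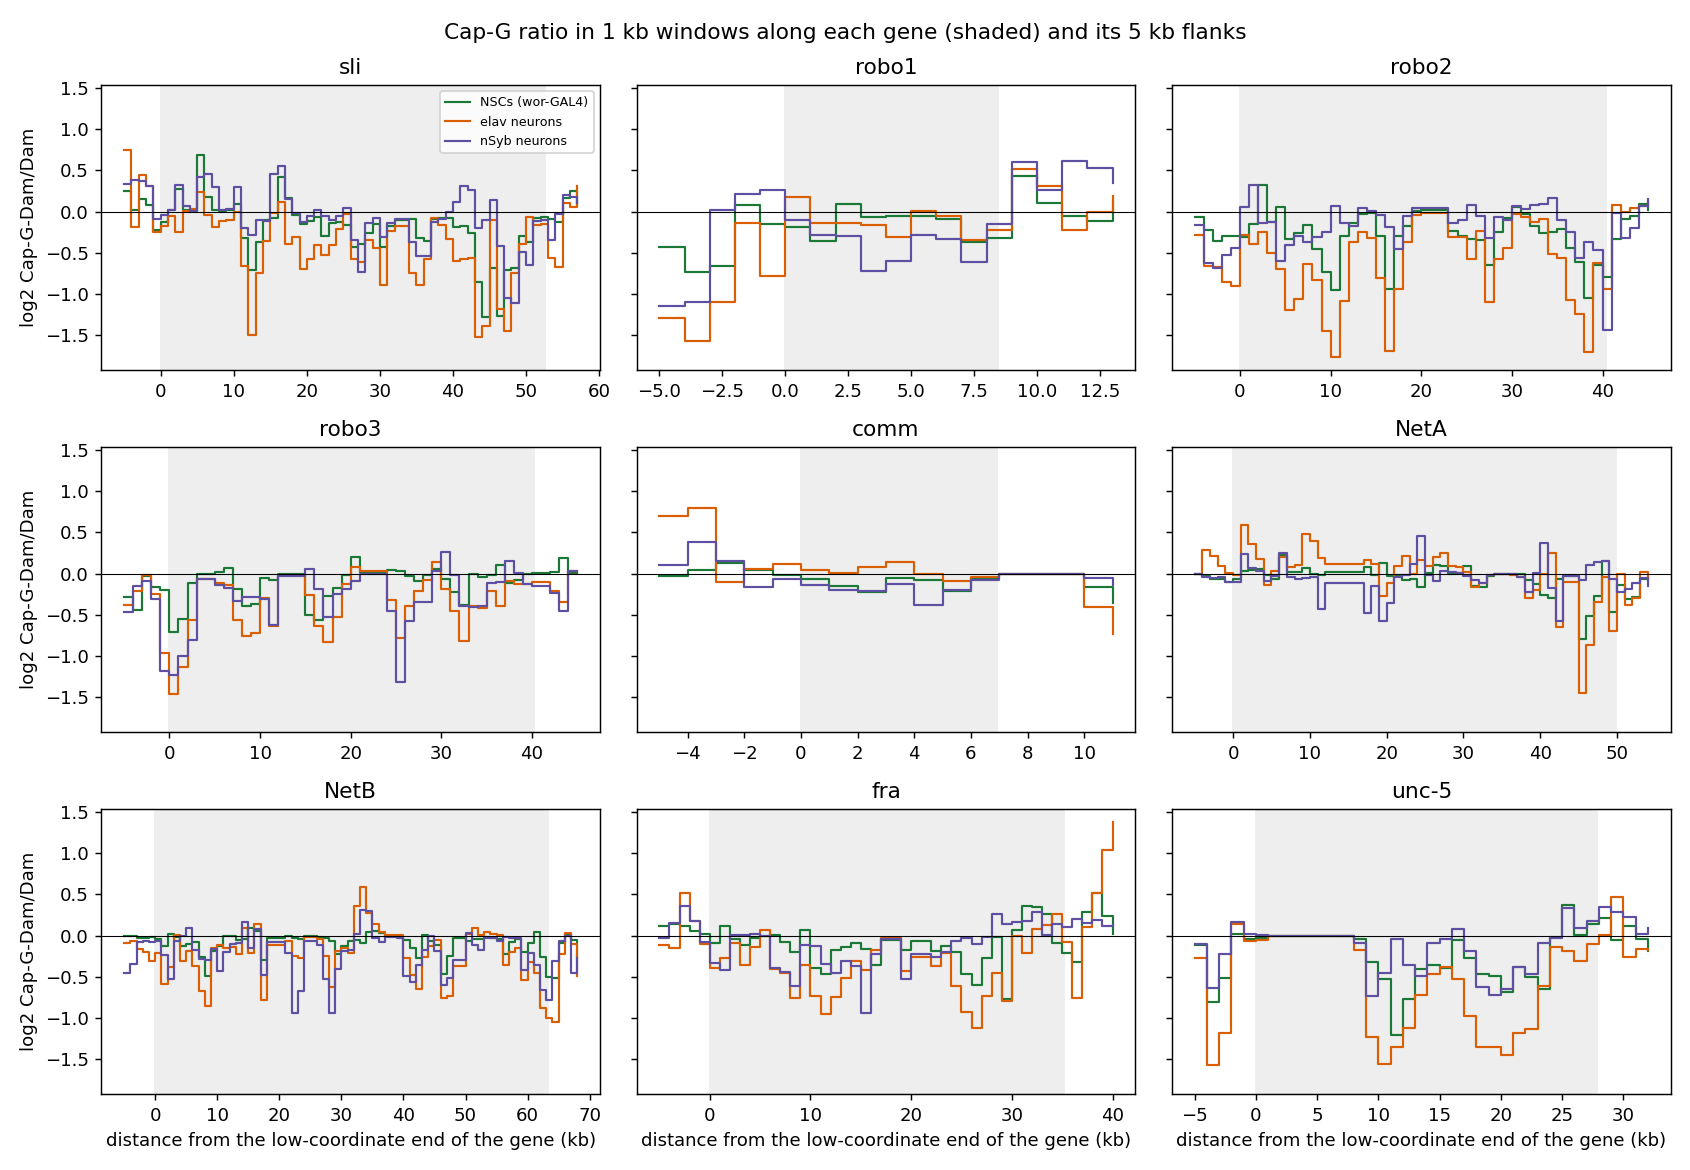
Log2 Cap-G-Dam/Dam-only ratio in 1 kb windows (y axis) against the distance from the low-coordinate end (x axis, kb) for each guidance gene (shaded) and its 5 kb flanks, 1 line per cell type. The elav line has deep minima over robo2, in the low-side flank of robo1 (-1.58 at -4 kb), over unc-5 and within sli, while NetA and comm stay near 0 over most of their length, and unc-5 has a flat run at 0.

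The differences between cell types were taken on the scaled values. Elav neurons were lower than NSCs for 6 of the 9 genes, where 47.5% of all protein-coding genes were lower. The median difference over the 9 genes was -0.46, against 0.05 over all protein-coding genes. The genes lower in elav neurons were *fra* (-0.77), *unc-5* (-0.73), *robo3* (-0.72), *robo2* (-0.69), *sli* (-0.46) and *NetB* (-0.44). Their differences lay between percentiles 17.0 and 26.8 of the differences of all protein-coding genes, so none was at the edge of the distribution. *comm* (0.63), *robo1* (0.28) and *NetA* (0.08) were higher in elav neurons.

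From elav to nSyb neurons, 2 of the 9 genes were lower, where 51.8% of all protein-coding genes were lower, and the median difference was 0.35 against -0.04. The largest differences were those of *robo2* (1.86, percentile 95.9), *unc-5* (1.60, percentile 94.3) and *sli* (1.34, percentile 92.1). These 3 genes stood lowest in elav neurons among the 9. This comparison shares the elav track with the one before it, so a low elav value enters both with opposite sign. The genes lower in nSyb neurons were *robo1* (-0.90, percentile 14.8) and *comm* (-0.64, percentile 22.9).

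The comparison of nSyb neurons with NSCs does not use the elav track, although each of its tracks enters 1 of the other comparisons. Here 4 of the 9 genes were lower in nSyb neurons, against 48.0% of all protein-coding genes. The median difference was 0.10 against 0.04. *robo2* (1.17, percentile 88.6), *sli* (0.88, percentile 83.4) and *unc-5* (0.87, percentile 83.1) were higher in nSyb neurons. *robo1* (-0.62, percentile 20.2), *robo3* (-0.37) and *NetB* (-0.30) were lower, and *NetA* (0.10), *fra* (0.11) and *comm* (-0.01) had nearly equal values. The 3 Robo receptor genes thus parted, *robo2* being higher and *robo1* and *robo3* lower in mature neurons than in NSCs.

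For *robo1* these differences turned when the 5 kb flanks were counted with the gene, to 0.83 between nSyb and elav neurons and 0.45 between nSyb neurons and NSCs, and that between elav neurons and NSCs became -0.39. With the unweighted median of the fragments they kept their sign and were larger for nSyb neurons, -1.80 against elav neurons and -1.39 against NSCs. For *robo3*, the difference between nSyb and elav neurons was 0.35 with the length-weighted mean and -0.04 with the unweighted median of the fragments, while the neurons were then further below NSCs (-1.29 for elav and -1.33 for nSyb neurons). The unweighted median also moved the difference between elav neurons and NSCs to -0.78 for *NetB*, and that between nSyb and elav neurons to -0.08 for *comm*. For *unc-5*, leaving out the fragments listed at 0 raised the difference between nSyb and elav neurons to 2.12.

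**Figure D3:**
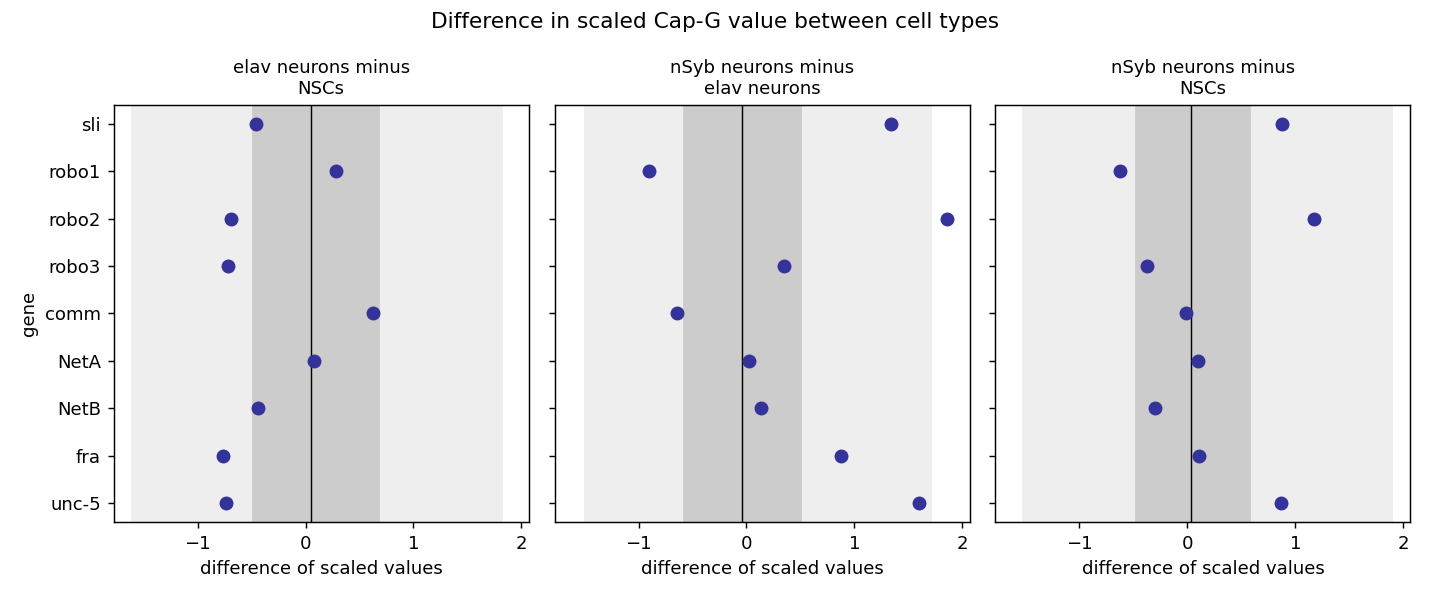
Difference in scaled value between cell types (x axis) for each guidance gene (y axis), 1 panel per comparison, with the median over all protein-coding genes (line), the span between their quartiles (dark grey) and the range from the 5th to the 95th percentile (light grey). robo2 lies beyond the light band between nSyb and elav neurons (1.86), and all other points lie within the light bands.

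Regions of high Cap-G were called as runs of consecutive fragments above high quantiles of the track at a false discovery rate of 0.01%, and a gene was counted as bound by a region on it, or by one at most 5 kb away if no other gene covered the gap. By this rule none of the guidance genes was bound, 0 of 9 in each cell type, where the shares of bound protein-coding genes were 7.84% (NSCs), 10.5% (elav) and 9.39% (nSyb). Of protein-coding genes of 20 kb or longer, 17.6%, 24.3% and 16.9% were bound, against 0 of the 7 long guidance genes. With 9 genes, a count of 0 is near the shares over all protein-coding genes. The paper counted most of the genes changed in its knockdowns as bound, and its peaks were not compared with these regions. A gene not bound by this rule may hold a peak of the study.

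High regions did stand beside the guidance genes, over other genes. Beyond the high end of *fra*, a region covered *Cyp301a1* in NSCs (chr2R:12566166-12568820, mean 0.41) and in elav neurons (chr2R:12566433-12569274, mean 0.73). Beside the low end of *sli*, *Rif1* held a region in elav neurons (mean 0.73) and another in nSyb neurons (mean 0.38). In elav neurons a region over *CG42570* and *CG42571* (mean 0.74) ended 2734 bp from *comm*. In nSyb neurons a short region of 4 fragments over *CG30259* (mean 0.996) began 965 bp from *robo1*. None of these is assigned to the guidance gene, since another gene lies on it or in between.

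At a false discovery rate of 1%, 3 guidance genes were bound in NSCs (*sli*, *fra* and *NetA*), 2 in elav neurons (*NetA* and *NetB*) and 2 in nSyb neurons (*sli* and *NetB*), while the rates were 24.0%, 25.3% and 26.0% over all protein-coding genes and 49.0%, 48.0% and 49.3% over those of 20 kb or longer. Most of these were the short high stretches already described. The region of *sli* at chr2R:15874728-15875908 in NSCs had a mean of 0.72, and in nSyb neurons it ran to 15877099 with a mean of 0.49. The region of *NetB* around *hog* had means of 0.54 in elav and 0.36 in nSyb neurons. *fra* held 2 adjoining regions in NSCs near its high end, with means of 0.46 and 0.35, and *NetA* held 1 near its low end in elav neurons (mean 0.75) and 1 near its high end in NSCs (mean 0.21).

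Turning the sign of the tracks gave regions of low Cap-G by the same rule. Such a region lay on or next to 4 of the 9 guidance genes in NSCs (*robo2*, *robo3*, *sli* and *unc-5*), where 13.8% of all protein-coding genes had one. In elav neurons the number was 5 (*robo1*, *robo2*, *sli*, *NetB* and *unc-5*), against 11.8%. In nSyb neurons it was 7, all but *NetA* and *comm*, against 15.7%. This order of the cell types rests on the quantiles used, since with the quantiles from 0.90 to 0.99 the numbers were 3, 5 and 2, against 7.94%, 7.10% and 7.56%. Of genes of 20 kb or longer, 30.2%, 29.5% and 42.8% had a low region, against 4, 4 and 6 of the 7 long guidance genes, so the background is higher for genes of this length. At a false discovery rate of 1%, low regions lay on or next to 8, 8 and 9 of the 9 guidance genes, against 30.5%, 27.7% and 33.5% of all protein-coding genes. For the 7 long guidance genes this was 6, 7 and 7, against 53.4%, 56.1% and 70.1% of genes of 20 kb or longer.

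The low regions were broad over *robo2* and *unc-5*. In elav neurons, 4 low regions covered 29.3 kb or 72.6% of *robo2*, against 14.2% in NSCs and 3.74% in nSyb neurons. At a false discovery rate of 1% these shares were 75.6% in elav neurons, 45.8% in NSCs and 19.3% in nSyb neurons. The longest of them, at chr2L:1382510-1399165, held 34 fragments with a mean of -0.86. Over *unc-5*, a single region of 35 fragments with a mean of -1.02 (chr2R:15349258-15364584) covered 55.1% of the gene in elav neurons. In NSCs 2 regions with the same outer ends covered 51.4% of *unc-5*, and in nSyb neurons 1 region covered 18.7%. The 23 fragments listed at 0 lie outside these regions.

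For the other genes the low regions were smaller. *sli* had 14.8% of its length in a low region in NSCs, 10.4% in elav and 9.61% in nSyb neurons, in each case at the high-coordinate end. *robo1* had 40.6% of its length in a low region in nSyb neurons (chr2R:22694615-22698041, mean -0.54) and 0 in NSCs and elav neurons. The elav call of *robo1* came from a region that ended 157 bp before the gene, over *lncRNA:CR44764* (mean -0.93). *fra* was covered for 14.6% in nSyb neurons and 0 in NSCs and elav neurons. *robo3* was covered for 8.76% in NSCs and 12.5% in nSyb neurons, at different places in the gene, and *NetB* for 4.35% in elav and 8.60% in nSyb neurons, again at different places. These contrasts rest on the strict limit. At a false discovery rate of 1%, low regions covered 30.5% of *fra* in NSCs, 48.9% in elav and 33.1% in nSyb neurons. *robo3* was then covered for 14.4%, 15.8% and 48.3% in the same order, with low regions at the low-coordinate end and at about 17 to 18 kb in all 3 tracks. *NetB* was covered for 14.3% in elav and 27.7% in nSyb neurons and 0 in NSCs, and several of its low regions began at the same fragment in both kinds of neuron. For *sli* the share in elav neurons was then 37.6%, with 3 further regions nearer the low-coordinate end.

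**Figure D4:**
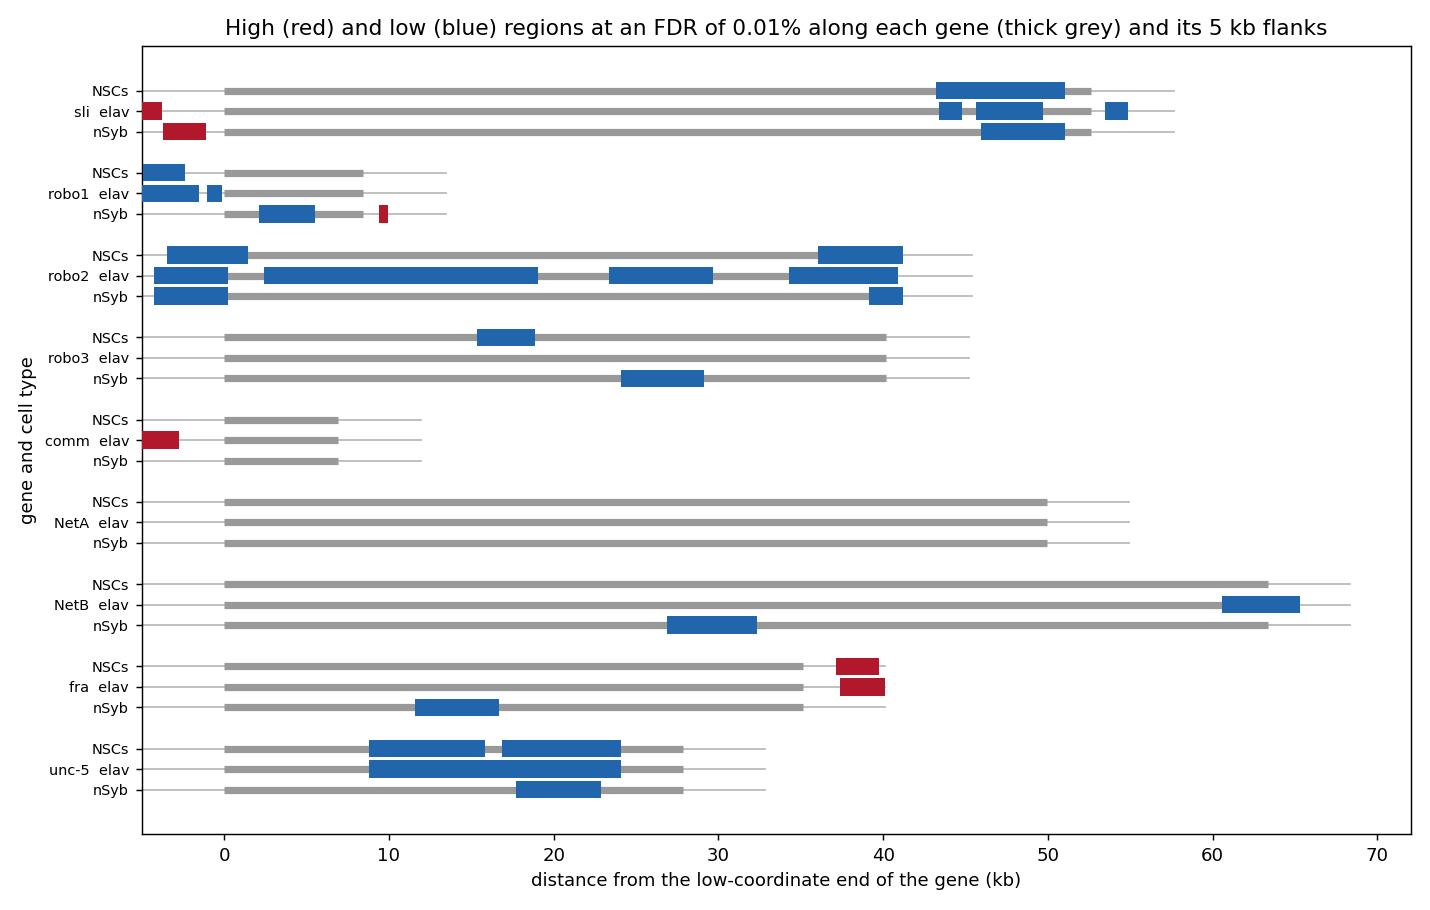
High (red) and low (blue) Cap-G regions at a false discovery rate of 0.01% along each guidance gene (thick grey) and its 5 kb flanks (thin grey), by distance from the low-coordinate end (x axis, kb) and by gene and cell type (y axis). No red block lies on a guidance gene, and blue blocks cover most of robo2 in elav neurons (72.6%) and much of unc-5 in elav neurons and NSCs (55.1% and 51.4%).

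The tracks of different cell types varied together along some of these genes and not along others. Spearman's rho over the fragments of the gene and its flanks is given as a description, since neighbouring fragments are correlated and the tracks share GATC spacing and base composition. Over all 373710 fragments it was 0.44 for NSCs against elav neurons, 0.44 for elav against nSyb neurons, and 0.37 for NSCs against nSyb neurons. Along *sli* (146 fragments) it was 0.68, 0.65 and 0.71 in that order, and along *unc-5* (102 fragments) it was 0.59, 0.63 and 0.71. Without the 23 fragments of *unc-5* listed at 0 in all tracks, which are tied in each, it was 0.64, 0.73 and 0.75 over 79 fragments. For *robo3* (72 fragments) it was 0.65 between elav and nSyb neurons but 0.42 and 0.07 between NSCs and these. *NetB* (129 fragments) had a like pattern, with 0.65 between elav and nSyb neurons and 0.37 and 0.14 with NSCs. For *robo3* and *NetB* the neuron tracks were thus more alike than either was to the NSC track, and for *sli* and *unc-5* the 3 values of rho were close to each other.

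The wider midline guidance pathway was described through 26 further genes. They comprise the midline transcription factors *sim* and *tgo*, relatives of *comm*, co-receptors, enzymes that process or sort Robo, and cytoplasmic effectors. Their median log2 ratio was -0.08 in NSCs, -0.07 in elav and -0.07 in nSyb neurons, against -0.12, -0.34 and -0.17 for the 9 guidance genes. Values below 0 numbered 19, 15 and 16 of 26, against 50.4%, 41.3% and 49.5% of all protein-coding genes. Bound by the 0.01% rule were 3 in NSCs (*Ptp10D*, *Dscam1* and *wrapper*), 5 in elav neurons (*comm2*, *comm3*, *trio*, *Ptp10D* and *drpr*) and 4 in nSyb neurons (*sim*, *comm3*, *Dscam1* and *drpr*), against 7.84%, 10.5% and 9.39% of all protein-coding genes. Low regions lay on or next to 7, 9 and 3 of the 26, against 13.8%, 11.8% and 15.7%.

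In that list *wrapper*, which encodes a protein of the midline glia, was the highest gene in all 3 cell types, at 0.37 in NSCs, 0.46 in elav and 0.53 in nSyb neurons. Second in rank were *drpr*, a glial engulfment receptor gene, in NSCs (0.14), *comm2*, a relative of *comm* in the same part of 3L, in elav neurons (0.38), and *sim*, the master regulator of midline cells, in nSyb neurons (0.21). The lowest were *Rho1* (-0.55) and *dock* (-0.51) in NSCs, *dock* (-0.71) and *Rac1* (-0.63) in elav neurons, and *dock* (-0.66) and *Psn* (-0.35) in nSyb neurons. *dock* encodes an adaptor that joins guidance receptors to the cytoskeleton, *Rho1* and *Rac1* encode small GTPases, and *Psn* encodes the protease Presenilin. *Rac1* and *Psn* rest on only 7 fragments each and *Rho1* on 13. The unweighted median of the 28 fragments of *dock* was 0.01 in NSCs, -0.07 in elav and -0.20 in nSyb neurons. Of these fragments 14 were above 0 in NSCs, 13 in elav and 1 in nSyb neurons, so *dock* was not low throughout in NSCs and elav neurons. *comm2*, at 0.38 in elav neurons, was far above *comm* at 0.02, and the 21.7 kb between them averaged 0.18 in elav neurons against -0.03 in NSCs and -0.01 in nSyb neurons.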

How the data were processed

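Targeted DamID of Cap-G was done in larval brains, with 2 Cap-G-Dam and 2 Dam-only samples per driver, 12 samples over 3 drivers. The authors aligned single-end 50 bp reads to the release 6.03 genome (BDGP6) with Bowtie2, counted them per GATC fragment and normalised the fusion against Dam-only. The deposited values are log2 ratios averaged by the authors over replicates, 1 track per driver. Versions of the authors' tools, the depth and the way of averaging are not given in these sources. The 12 RNA-seq samples were not analysed here, and 0 value columns of the tracks were left unused.

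Genes came from a Release 6 table without strand or exons, so ends of genes are named by coordinate. To get a gene's value, fragments were averaged with the bases each shares with the gene as weights. Regions were runs of at least 2 consecutive fragments above the 0.80, 0.85, 0.90, 0.95 or 0.99 quantile of the track, and at least 0, with a false discovery rate of 0.01% against fragments in random order. This follows the study's limits but not its program, and it was run on the averages. Random order ignores that neighbouring fragments are correlated (r between 0.75 and 0.79 in the 3 tracks), so the rate is nominal. The caller was tried only on runs planted in fragments put in random order. Such fragments lack the correlation between neighbours, so the trial cannot tell how many calls in these tracks are false.

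The members and lists were chosen with earlier results of these data known, which included low axon guidance genes in elav neurons, so the direction found here is no independent support for that. Low regions, ranks among genes of 20 kb or longer, differences of percentiles and correlations without fragments listed at 0 were added after the data had been seen. Named genes are the 9 members, the 2 highest and 2 lowest of the 26 further genes in each track, genes within 5 kb of a member where a region is described, and for each member the protein-coding gene of at least 20 fragments nearest in scaled values. The bound genes among the 26 were named after their values were seen. Alternatives were another summary of the fragments, added flanks, other fragment filters, other gene backgrounds and other region settings. Python 3.11.15 was used (numpy 2.4.6, scipy 1.17.1, pandas 2.3.3, matplotlib 3.10.9).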

Additional observations from a re-analysis of the deposited data

How the results depend on the processing

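With the unweighted median of the fragments, the median of the 9 genes was -0.0325 in NSCs, -0.20 in elav and -0.067 in nSyb neurons. The median percentile was then 30.3, 14.8 and 30.5 in the same order. The median scaled difference between elav neurons and NSCs was -0.78, and 4 genes in place of 2 were lower in nSyb than in elav neurons. With 5 kb added on each side, the median scaled difference between nSyb and elav neurons was 0.83, and 2 genes in place of 4 were lower in nSyb neurons than in NSCs. The shares of all protein-coding genes that were lower under these settings were not computed, so these counts of genes have no background. The differences of at least 0.3 that turned were *comm* between elav neurons and NSCs (-0.16) and *robo3* between nSyb and elav neurons (-0.044) with the unweighted median, and *robo1* between nSyb and elav neurons (0.83) and between nSyb neurons and NSCs (0.45) with the flanks. Of 135 differences of single genes under these and 3 other settings, 116 stayed within 0.3, 15 moved by more and 4 turned. Of 108 gene values, 90 stayed within 0.1 and 18 moved by more. Of these 18, 13 moved with the unweighted median, where 14 stayed. The genes bound at a false discovery rate of 1% numbered 3 in NSCs, 2 in elav and 2 in nSyb neurons, and at 5% they numbered 4, 2 and 6 (33.9% of all protein-coding genes in each track). Low regions at 1% lay on or next to 8, 8 and 9 genes, and at 5% on or next to all 9 in each track (39.5%, 36.8% and 42.0% of all protein-coding genes). With the quantiles from 0.90 to 0.99 only, 2 genes in nSyb neurons had a low region, against 7.56% of all protein-coding genes. The cause of these shifts was not tested. Leaving out each replicate could not be run on averaged tracks. No paired analysis was possible because each cell type is given as 1 averaged track and no result comes from a test. The depth behind each fragment is not known, and short genes such as *comm* rest on few fragments.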

Other observations

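For each guidance gene, the protein-coding gene with at least 20 fragments whose 3 scaled values were nearest, by Euclidean distance over the 3 cell types among 3784 genes, is given as a description of likeness only (3785 genes for *comm*). *robo2* was nearest to another member, *unc-5* (distance 0.25), which is on another chromosome. *unc-5* was itself nearest to *PH4alphaEFB*, a prolyl hydroxylase gene, at 0.16, with log2 ratios of -0.25 in NSCs, -0.55 in elav and -0.18 in nSyb neurons. *sli* was nearest to *stai* (0.16), a stathmin gene of microtubule turnover, and *robo1* to the Ephrin receptor gene *Eph* (0.14). *NetB* was nearest to *CG17816* (0.12), *comm* to *Cont* (0.09), *robo3* to *CG42402* (0.07), *fra* to *side-V* (0.06) and *NetA* to *CG7564* (0.06). The distances were largest for *robo2*, *unc-5* and *sli*.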
